A study of Homo sapiens with 4 samples.

Results

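The genes described here were 53 genes of mitosis and cytokinesis, listed by symbol as regulators, structural proteins or markers of the late cell cycle, and each was found in the 61806 genes of the deposited expression table. RNA was sequenced from JJ012, a human chondrosarcoma (malignant cartilage-forming tumour) cell line, and from 143B, a human osteosarcoma (malignant bone-forming tumour) cell line. Cells of both lines were grown detached, in suspension, without treatment (control) or with melatonin at 1 mM for 72 h. Melatonin is the hormone of the pineal gland. Each of the 4 conditions was 1 library, so a line had no replicate, no test within a line was possible, and a difference within a line is a difference between 2 libraries. Suspension was shared by all libraries, and no library of attached cells was analysed here.

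Cells enter mitosis when the kinase CDK1 is switched on by a cyclin partner and by the removal of inhibitory phosphates. A spindle of microtubules then captures the chromosomes at their kinetochores, a checkpoint delays anaphase until all are attached, the anaphase-promoting complex marks cyclin B and securin for destruction, and the cell divides across the central spindle. Most of the mRNAs involved are made in late S, G2 and M phase and are low in resting cells, so that in bulk RNA fewer cycling cells and less of each mRNA per cycling cell cannot be told apart. Transcription of these genes is known to depend on FOXM1, B-MYB and the MuvB proteins, which act at a short promoter element, the cell cycle genes homology region (CHR), often together with CCAAT boxes.

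The libraries held between 15889564 and 19218343 counts, and a floor of 3 counts stood between 0.156 and 0.189 CPM (counts normalised to the library total). All 53 genes were detected in all 4 libraries, with 5 to 2703 counts each. Levels are given in FPKM, which is counts scaled to exonic length and to the total of the library. The median FPKM of the members was 3.67 in JJ012 control, 2.34 in JJ012 with melatonin, 3.52 in 143B control and 2.44 in 143B with melatonin. Under 1 FPKM were 3, 9, 3 and 12 members in that order. Together the members took 1079 CPM of JJ012 control (95% Poisson interval 1064 to 1094), 884 CPM after melatonin (870 to 899), 1282 CPM of 143B control (1265 to 1300) and 788 CPM after melatonin (775 to 802). The members mark dividing cells of any type. Of 8 chondrocyte markers, 2 (SOX9 and COL11A1) reached 1 FPKM in JJ012, where COL2A1, the collagen that defines cartilage, had 0 counts. Among the osteoblast markers, RUNX2 and BGLAP reached 1 FPKM in both 143B libraries, and IBSP had 0 counts there. Of 10 markers of blood, epithelial and endothelial cells, 4 or 5 reached 1 FPKM per library, with a summed level of 34.8 FPKM in JJ012 control, 19.9 in JJ012 with melatonin, 50.1 in 143B control and 35.6 in 143B with melatonin. CD3E, a T cell gene, was at 9.73 and 3.28 FPKM in the JJ012 libraries, and PTPRC, which marks blood cells, was at 0.14 FPKM or less. These sums were lower after melatonin in both lines, and their part in the results was not tested.

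**Figure D1:**
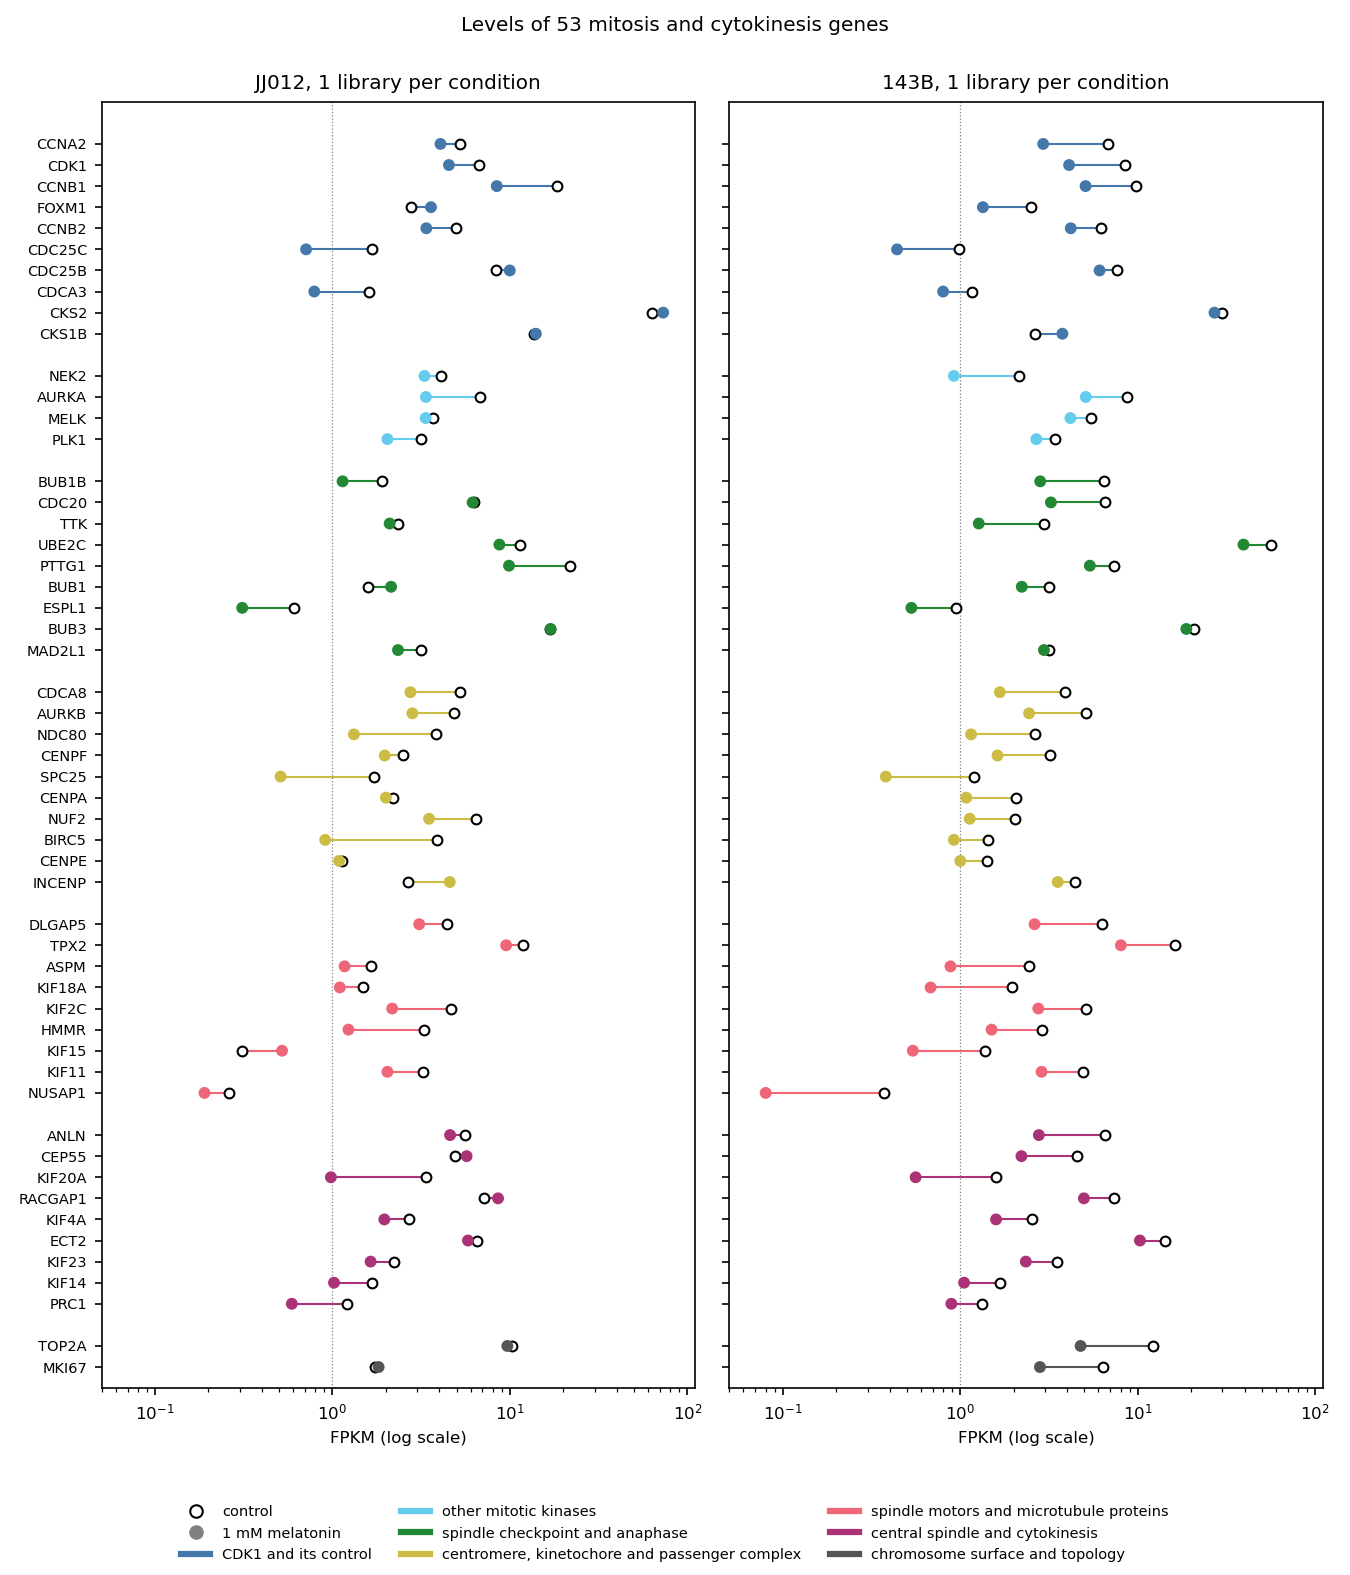
FPKM on a log scale of the 53 members in JJ012 (left) and 143B (right), 1 library per condition, with control as open circles, 1 mM melatonin as filled circles and colours for the 7 roles; the dotted line marks 1 FPKM. In 143B the filled circle lies left of the open one for 52 of 53 members, and in JJ012 for 42 of 53.

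To ask how melatonin altered the mitotic programme in chondrosarcoma cells, the 2 JJ012 libraries were compared. The log2 fold change was taken as log2 of (FPKM + 1) with melatonin over (FPKM + 1) in control, so changes of low genes are understated, and a gene was called changed at an absolute value of at least 0.58. In JJ012, 13 of 53 members (24.5%) fell and 1 (1.89%) rose, where 18.6% of the 15794 genes tested fell and 19.6% rose (16.1% and 17.8% of protein-coding genes). The share that fell was thus close to that of all genes, and the share that rose was far below it. Of the 53, 50 reached 1 FPKM in either library and could be called, so that 13 of 50 tested fell. Of the 50, 6 reached it in 1 library only, which was the control. Among these 6, CDC25C, KIF20A, BIRC5 and SPC25 were called lower, and CDCA3 and PRC1 were not. With a filter on the mean of the 4 libraries, 11 of 48 members fell and 1 rose, where 15.2% and 18.5% of all genes did. The log2 fold change lay below 0 in 42 of 53 members (49.4% of all genes tested), with a median of -0.30 against 0.01 for all genes tested. The range ran from -1.36 for BIRC5 to 0.61 for INCENP. For each gene the ratio of CPM was set against its exact 95% interval, which covers the sampling of counts and not the variation between cultures. The interval lay below 1 for 34 members, above 1 for 7 and included 1 for 12, while 35.2% of all genes tested lay below 1 and 36.9% above. Summed over the 53 members, CPM after melatonin was 0.819 of the control (95% interval 0.802 to 0.837).

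The same comparison in 143B, the osteosarcoma line, gave a fall of more members in a line where fewer genes moved. In 143B, 27 of 53 members (50.9%) fell and 0 rose, where 6.65% of the 14135 genes tested fell and 6.09% rose. Among protein-coding genes alone, 2.6% fell and 3.48% rose. The FPKM filter was passed by 50 members, of which 27 fell. Of the 50, 9 passed through 1 library only, which was the control. Among these 9, KIF20A, SPC25, NEK2, ASPM, KIF15 and KIF18A were called lower, and BIRC5, CDCA3 and PRC1 were not. With a filter on the mean of the 4 libraries, 25 of 48 members fell and 0 rose, where 4.2% and 4.49% of all genes did. The log2 fold change lay below 0 in 52 of 53 members (46.1% of all genes tested). Its median was -0.585 over the 53 and -0.62 over the 50 tested, against 0.03 for all genes tested. TOP2A had the lowest value, -1.19, and CKS1B the highest, 0.39. The 95% counting interval of the CPM ratio lay below 1 for 50 members, included 1 for CKS2 and MAD2L1 and lay above 1 for CKS1B, while 23.5% of all genes tested lay below 1 and 28.4% above. The summed CPM of the members after melatonin was 0.615 of the control (0.601 to 0.628), and 0.605 (0.592 to 0.619) without CKS2 and UBE2C, the members with the highest FPKM in 143B.

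**Figure D2:**
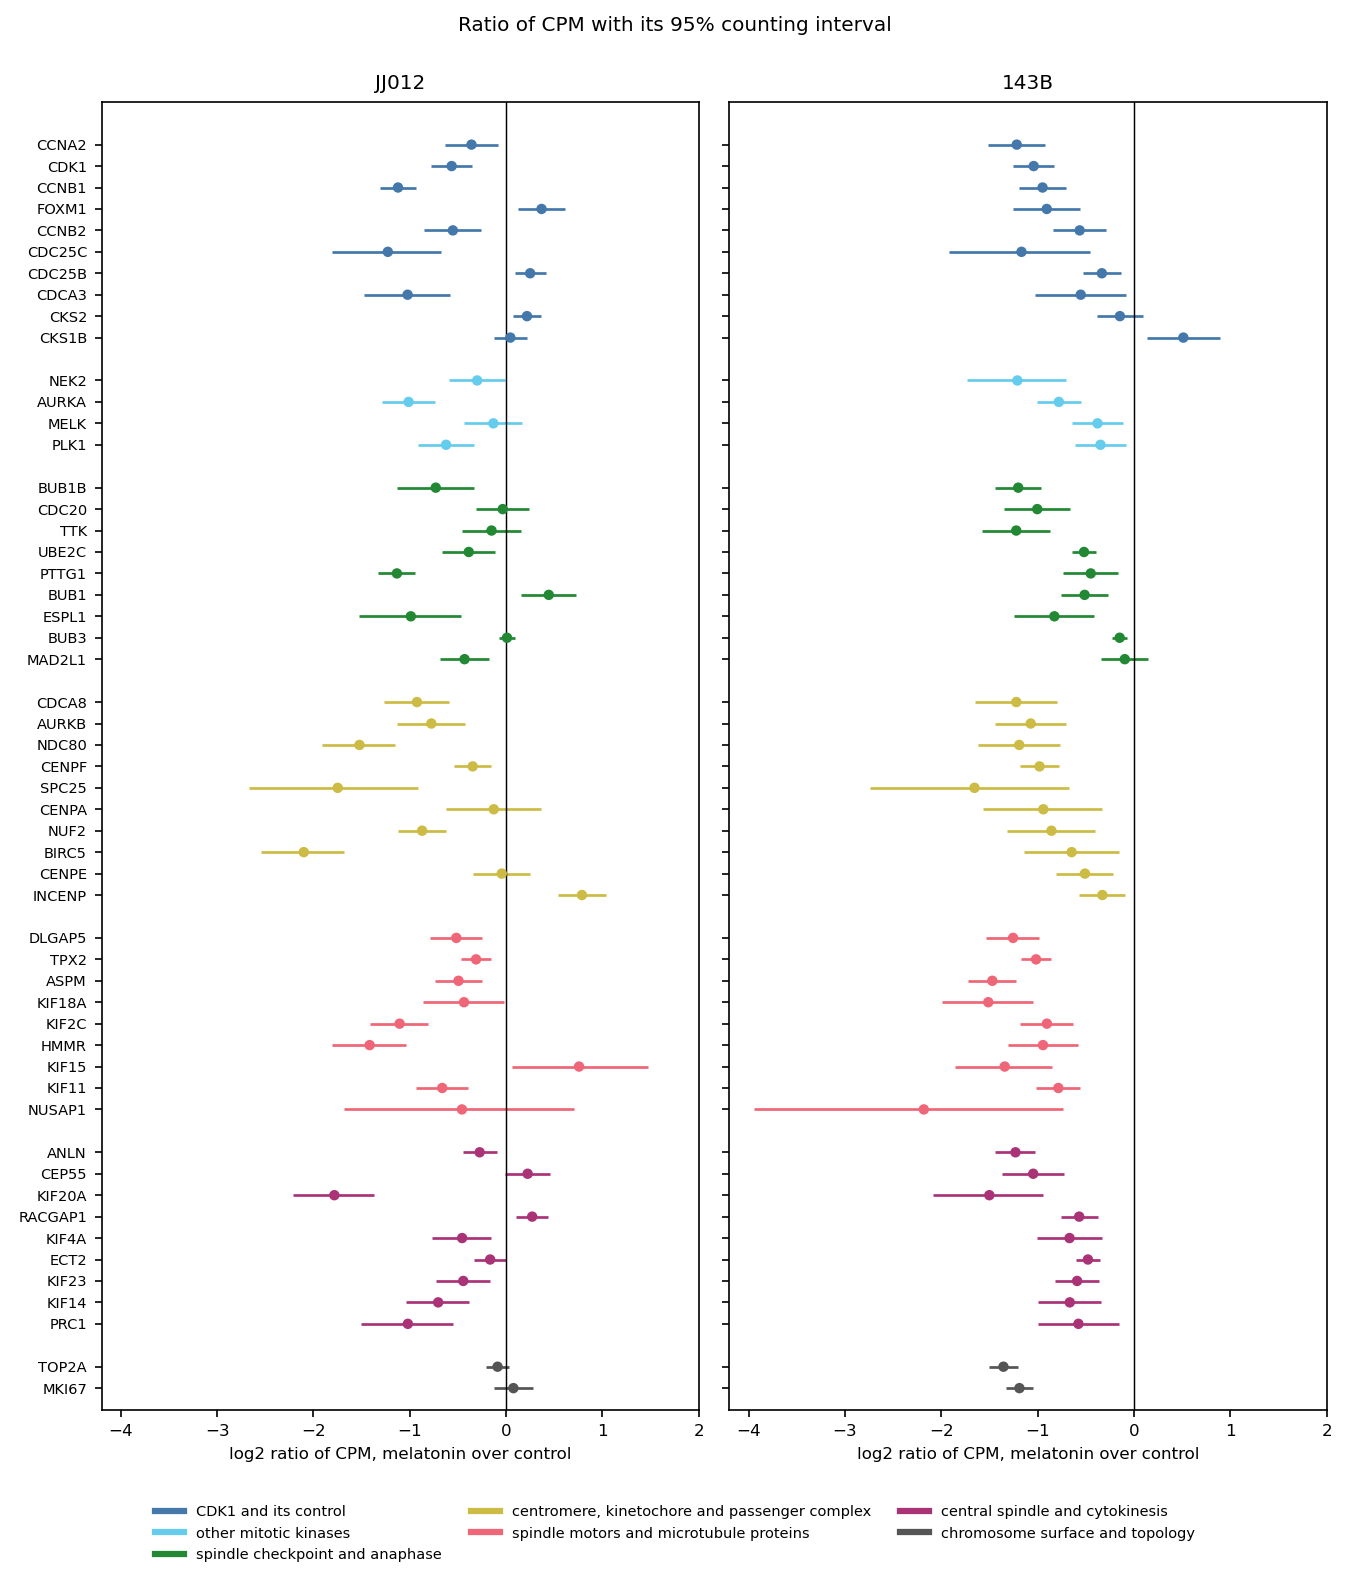
Log2 ratio of CPM, melatonin over control, for each member in JJ012 (left) and 143B (right), with lines for the exact 95% counting interval of 1 library against 1 and colours for the 7 roles. In 143B 50 of 53 intervals end left of 0, and in JJ012 34 do.

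What the members shared apart from their change was looked for in their promoters. RefSeq promoter windows (GRCh38.p14, 250 bases before to 50 bases after the start site) were matched by symbol for 45 of 53 members, as 55 windows. The CHR was searched as TTTGAA or its reverse complement TTCAAA. It was found in 34 of 45 members (75.6%), against 18.2% of all 27305 genes with a window and 15.8% of protein-coding ones. In the last 150 bases of the window it was found in 71.1% of members and 8.46% of all genes. CCAAT boxes, searched as CCAAT or ATTGG, were present in 82.2% of members and 39.7% of all genes, and both elements in 64.4% and 7.26%. The CHR matches of the members clustered just before the start site. Of 50 matches, 38 lay within 100 bases of it, and the median position was -28.5. An E2F element of S phase genes, searched as TTTGGCGC or TTTCGCGC with their reverse complements, was found in 3 of 45 members (6.67%) and 1.4% of all genes. A variant of the CHR, TTCGAA, was searched apart from it and found in 3 of 45 members (6.67%) and 1.82% of all genes.

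**Figure D3:**
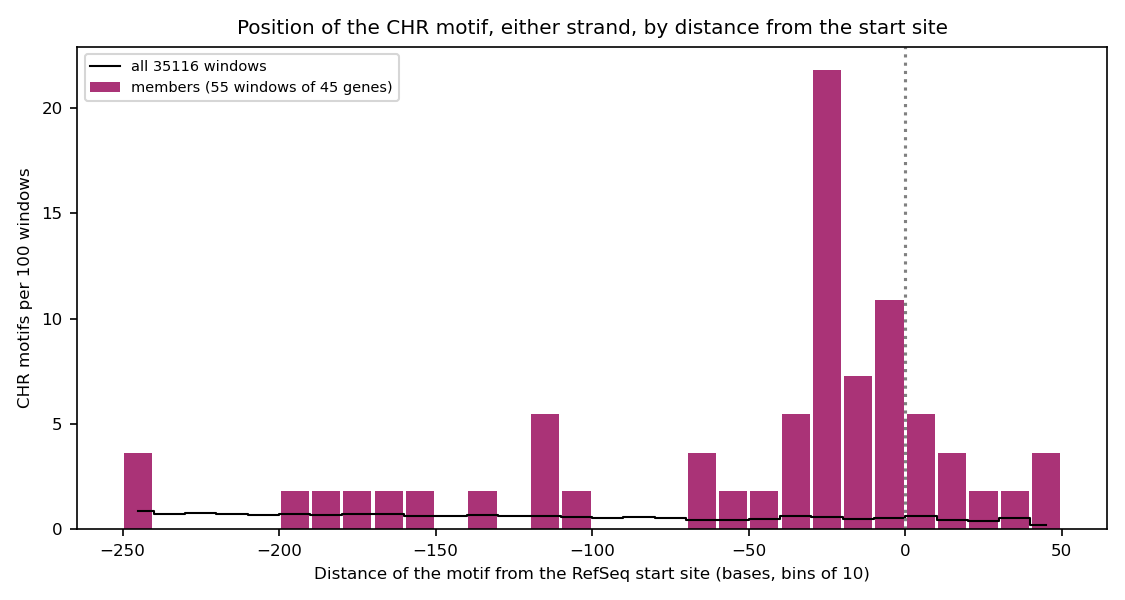
CHR matches on either strand per 100 promoter windows, by distance of the match from the RefSeq start site in bins of 10 bases, for the 55 windows of 45 members (bars) and all 35116 windows (line). The bin from -30 to -21 holds 21.8 matches per 100 member windows against 0.55 per 100 windows in all.

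The 250 bases before the start site are shown for some members as examples. TOP2A had the lowest log2 fold change in 143B, CDC20 fell in 143B and not in JJ012, and CDCA8 and CCNB1 fell in both lines. INCENP and CKS1B are the members with the highest value in JJ012 and in 143B. Each is printed 5′ to 3′ on the strand of the gene, with the CHR and the CCAAT box in capitals; in CDCA8 a CHR and a CCAAT box overlap and form 1 run of capitals. The windows are chr17:40417897-40418146 on the minus strand for TOP2A, and on the plus strand chr1:43358731-43358980 for CDC20, chr1:37692266-37692515 for CDCA8, chr5:69166900-69167149 for CCNB1, chr11:62123761-62124010 for INCENP and chr1:154974431-154974680 for CKS1B.
TOP2A: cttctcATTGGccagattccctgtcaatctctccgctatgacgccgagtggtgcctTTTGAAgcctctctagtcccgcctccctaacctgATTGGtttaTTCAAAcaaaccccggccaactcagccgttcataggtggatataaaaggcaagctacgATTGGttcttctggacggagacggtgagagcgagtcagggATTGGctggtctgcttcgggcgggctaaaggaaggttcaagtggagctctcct
CDC20: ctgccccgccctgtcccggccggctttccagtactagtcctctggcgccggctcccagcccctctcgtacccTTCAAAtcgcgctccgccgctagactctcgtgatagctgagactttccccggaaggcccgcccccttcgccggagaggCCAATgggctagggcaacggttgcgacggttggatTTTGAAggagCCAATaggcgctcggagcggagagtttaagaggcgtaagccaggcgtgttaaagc
CDCA8: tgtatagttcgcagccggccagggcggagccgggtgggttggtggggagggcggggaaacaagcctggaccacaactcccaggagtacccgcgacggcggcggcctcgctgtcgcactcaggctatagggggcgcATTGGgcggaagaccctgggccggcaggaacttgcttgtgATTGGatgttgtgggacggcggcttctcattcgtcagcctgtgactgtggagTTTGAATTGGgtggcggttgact
CCNB1: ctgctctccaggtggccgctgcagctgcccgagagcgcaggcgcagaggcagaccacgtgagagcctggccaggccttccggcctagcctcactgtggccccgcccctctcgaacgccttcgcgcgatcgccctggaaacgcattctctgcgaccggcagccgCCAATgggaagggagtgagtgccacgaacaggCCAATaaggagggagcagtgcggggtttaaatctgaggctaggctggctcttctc
INCENP: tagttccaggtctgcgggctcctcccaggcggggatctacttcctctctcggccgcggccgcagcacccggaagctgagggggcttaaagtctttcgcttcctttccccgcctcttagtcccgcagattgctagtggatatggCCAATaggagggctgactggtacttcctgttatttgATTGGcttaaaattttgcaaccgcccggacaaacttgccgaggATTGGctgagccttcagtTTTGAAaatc
CKS1B: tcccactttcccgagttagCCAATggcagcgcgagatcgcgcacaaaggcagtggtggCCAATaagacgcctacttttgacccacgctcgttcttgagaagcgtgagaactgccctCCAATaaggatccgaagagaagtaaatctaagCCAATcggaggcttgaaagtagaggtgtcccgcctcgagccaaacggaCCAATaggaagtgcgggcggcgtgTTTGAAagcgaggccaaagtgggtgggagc

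TOP2A and CDC20 each held 2 CHR matches in these 250 bases, CDCA8 1, and CCNB1 none with these letters but 2 CCAAT boxes. INCENP and CKS1B, which did not fall, held the CHR as well. Of the other members lower in both lines, NDC80, KIF20A, KIF2C and AURKB held 0 CHR matches in these 250 bases. NDC80 had a match at -3, which runs past the start site. SPC25 held 1 match in the 250 bases and HMMR 2, and AURKA had no window. In JJ012 the median log2 fold change was -0.31 for the 34 members with a CHR, of which 6 fell, and -0.30 for the 11 members in which it was not found, of which 5 fell. In 143B these medians were -0.59, with 17 of 34 lower, and -0.71, with 6 of 11 lower. These differences were not tested. Of the 11 members, BUB1 and CDC25B held the CHR variant TTCGAA. A match is a description of the sequence, and binding was not measured.

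Counts of genes that fell or rose in a role are to be read against the shares of all genes tested, 18.6% lower and 19.6% higher in JJ012 and 6.65% and 6.09% in 143B. Among the 10 genes of CDK1 and its control, CCNB1 and CDC25C fell in JJ012, and CCNA2, CCNB1, CDK1 and FOXM1 fell in 143B. CDK1 itself, the kinase that drives mitotic entry, stood at 6.71 FPKM in JJ012 control, 4.53 in JJ012 with melatonin, 8.44 in 143B control and 4.10 in 143B with melatonin. Its log2 fold change of -0.89 in 143B passed the threshold and that of -0.48 in JJ012 did not. CCNB1, cyclin B1, its mitotic partner, went from 18.35 to 8.43 FPKM in the JJ012 pair and from 9.80 to 5.08 in the 143B pair. It fell in both lines, by 1.04 and 0.83 on the log2 scale, and its CPM ratio was 0.459 (0.403 to 0.522) in JJ012 and 0.518 (0.436 to 0.614) in 143B. CCNA2, cyclin A2, which acts from S phase to early mitosis, had the lowest value of these 10 genes in 143B, where it went from 6.80 to 2.93 FPKM, which is -0.99 on the log2 scale. In JJ012 it measured 5.21 and 4.06 FPKM, a difference of -0.30. FOXM1, a transcription factor of G2 and M phase genes, had values on opposite sides of 0. It measured 2.78 FPKM in JJ012 control and 3.59 with melatonin (log2 fold change 0.28), and 2.51 in 143B control and 1.34 with melatonin (-0.585, which passed the threshold by a narrow margin). CDC25C, a phosphatase that removes the inhibitory phosphates of CDK1, fell in JJ012 from 1.66 to 0.71 FPKM and measured 0.98 and 0.44 FPKM in 143B, where it stayed under 1 FPKM and out of the genes tested. Its relative CDC25B did not pass the threshold in either line, with log2 fold changes of 0.22 and -0.29.

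The small CDK-binding subunits stood apart from the cyclins. CKS1B, which also helps to mark the CDK inhibitor p27 for destruction, measured 13.59 and 14.00 FPKM in JJ012 and 2.64 and 3.76 in 143B. Its CPM ratio in 143B was 1.43 (1.10 to 1.86), the only interval above 1 among the members in that line, though its log2 fold change of 0.39 was under the threshold. CKS2 was the member with the highest FPKM in both JJ012 libraries, at 62.85 and 73.01 in JJ012 and 29.93 and 27.05 in 143B, with log2 fold changes of 0.21 and -0.14. The other 2 genes of this role, CCNB2 and CDCA3, had log2 fold changes from -0.54 to -0.27. Over the 10 genes, 2 fell in JJ012 and 4 in 143B, and their summed CPM after melatonin was 0.870 and 0.648 of the control.

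Among the other mitotic kinases, AURKA fell in both lines. AURKA, Aurora A, which matures the spindle poles, went from 6.79 to 3.36 FPKM in the JJ012 pair and from 8.75 to 5.09 in the 143B pair. NEK2, which separates the centrosomes, had the lowest value of the 4 in 143B, from 2.14 to 0.92 FPKM and a log2 fold change of -0.71, and measured 4.07 and 3.30 FPKM in JJ012. PLK1, the polo-like kinase of mitotic entry and spindle assembly, did not pass the threshold in either line. It measured 3.15 and 2.04 FPKM in JJ012 and 3.41 and 2.68 in 143B, log2 fold changes of -0.45 and -0.26, and both counting intervals of its CPM ratio lay below 1. MELK, a kinase widely used as a marker of dividing tumour cells, had the value nearest 0 in JJ012, at 3.67 and 3.35 FPKM, with 5.42 and 4.17 in 143B.

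In the spindle checkpoint and at anaphase onset, the lowest values belonged to different genes in the 2 lines. In JJ012 PTTG1, securin, which holds the protease separase inactive until anaphase, was the only one of 9 that fell, from 21.68 to 9.88 FPKM. In 143B it measured 7.33 and 5.37 FPKM, a log2 fold change of -0.39. The genes that fell in 143B were BUB1B, CDC20 and TTK. BUB1B, BubR1, a part of the complex that blocks the anaphase-promoting complex, went from 6.49 to 2.82 FPKM there, a log2 fold change of -0.97, and measured 1.89 and 1.14 in JJ012. CDC20, the activator of the anaphase-promoting complex, went from 6.51 to 3.24 FPKM in 143B and was at 6.31 and 6.16 in JJ012, where the interval of its CPM ratio, 0.805 to 1.18, included 1. TTK, the Mps1 kinase at the head of the checkpoint, had log2 fold changes of -0.81 in 143B and -0.10 in JJ012. At the other end stood BUB1, BUB3 and MAD2L1. BUB1, a checkpoint kinase of the kinetochore, had the highest value of the role in JJ012, with 1.58 and 2.14 FPKM (log2 fold change 0.28), and 3.16 and 2.22 in 143B (-0.37). MAD2L1, the MAD2 protein that binds CDC20, had the value nearest 0 in 143B, with 3.16 and 2.96 FPKM, and measured 3.15 and 2.34 in JJ012. BUB3, which brings BUB1 and BUB1B to the kinetochore, gave the most counts of any member (2236 to 2703) and log2 fold changes of 0.01 and -0.14. UBE2C, the ubiquitin-conjugating enzyme of the anaphase-promoting complex, and ESPL1, separase, did not pass the threshold in either line.

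Of the 10 genes of the centromere, the kinetochore and the chromosomal passenger complex, 6 fell in JJ012 and 5 in 143B, where 18.6% and 6.65% of all genes tested fell, and 1 rose in JJ012. The Ndc80 complex, which grips microtubule ends, is represented by 3 subunits. NDC80 went from 3.81 to 1.32 FPKM in the JJ012 pair and from 2.62 to 1.15 in the 143B pair and fell in both. SPC25 fell in both as well, from 1.71 to 0.51 FPKM and from 1.20 to 0.38, on few counts (60 and 15 in JJ012, 35 and 12 in 143B). NUF2 fell in JJ012, from 6.41 to 3.50 FPKM, and had a log2 fold change of -0.51 in 143B, from 2.04 to 1.13. The interval of the CPM ratio was below 1 for these 3 subunits in both lines.

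The passenger complex, which corrects faulty attachments and later moves to the central spindle, did not move as a unit in JJ012. BIRC5, survivin, had the lowest log2 fold change of all 53 members in JJ012, where it fell from 3.90 to 0.91 FPKM with a CPM ratio of 0.233 (0.172 to 0.311). In 143B it measured 1.44 and 0.92 FPKM, a log2 fold change of -0.35. CDCA8, borealin, fell in both lines, from 5.23 to 2.75 FPKM in the JJ012 pair and from 3.90 to 1.67 in the 143B pair, where it had the lowest value of the role. AURKB, Aurora B, the kinase of the complex, fell from 4.83 to 2.82 FPKM and from 5.14 to 2.44. INCENP, the scaffold that activates Aurora B, was the only member that rose in JJ012. It went from 2.65 to 4.58 FPKM there, a CPM ratio of 1.73 (1.45 to 2.05), and from 4.45 to 3.54 in 143B, a ratio of 0.796 (0.674 to 0.940). The scaffold and its partners thus moved in opposite directions in the JJ012 libraries and in 1 direction by counting interval in the 143B libraries. CENPF, a kinetochore protein of G2 and M phase, fell in 143B from 3.19 to 1.62 FPKM and measured 2.51 and 1.97 in JJ012. CENPA, the histone of centromeres, and CENPE, a kinetochore motor, did not pass the threshold in either line, and CENPE had log2 fold changes of -0.03 and -0.28.

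The spindle motors and microtubule proteins were the role in which the most members fell in 143B. There 8 of 9 fell, and NUSAP1, with 21 and 5 counts, was under 1 FPKM in both libraries. DLGAP5, HURP, which stabilises the microtubules of kinetochores, had the lowest value, from 6.26 to 2.62 FPKM in 143B and from 4.41 to 3.08 in JJ012. TPX2, the activator of Aurora A on spindle microtubules, went from 16.25 to 8.03 FPKM in 143B, and ASPM, which focuses spindle poles, from 2.45 to 0.88. The fall in 143B was also seen in the motors KIF11, KIF15, KIF18A and KIF2C, with log2 fold changes between -0.81 and -0.62. The summed CPM of the 9 genes after melatonin was 0.469 of the control in 143B (0.440 to 0.499) and 0.679 in JJ012 (0.636 to 0.724). In JJ012, HMMR and KIF2C fell. HMMR, a spindle protein also known as the hyaluronan receptor RHAMM, went from 3.28 to 1.23 FPKM in the JJ012 pair and from 2.88 to 1.50 in the 143B pair. KIF2C, MCAK, a motor that takes microtubule ends apart, went from 4.68 to 2.17 FPKM and from 5.14 to 2.75. KIF15, which helps KIF11 to hold the poles apart, had the highest value of the role in JJ012, at 0.31 and 0.52 FPKM on 31 and 44 counts, and measured 1.37 and 0.54 in 143B.

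At the central spindle and in cytokinesis, KIF20A fell in both lines, while ECT2 and RACGAP1, which set up the division plane, passed the threshold in neither. KIF20A, the motor that carries the passenger complex to the central spindle, went from 3.38 to 0.98 FPKM in JJ012, with a CPM ratio of 0.290 (0.216 to 0.386), and from 1.58 to 0.56 in 143B, with a ratio of 0.353 (0.235 to 0.521). ANLN, anillin, which links the contractile ring to the membrane, had the lowest value of the 9 in 143B, from 6.50 to 2.77 FPKM, and was at 5.56 and 4.60 in JJ012. CEP55, which recruits the abscission machinery, fell in 143B from 4.57 to 2.21 FPKM and measured 4.89 and 5.70 in JJ012. ECT2, which activates the GTPase RhoA at the division plane, had log2 fold changes of -0.14 in JJ012 and -0.44 in 143B. Its partner RACGAP1 had the highest value of the role in JJ012, at 7.11 and 8.57 FPKM, and measured 7.38 and 4.97 in 143B. PRC1, which bundles the antiparallel microtubules of the central spindle, measured 1.21 and 0.59 FPKM in JJ012 and 1.32 and 0.89 in 143B, where its log2 fold change of -0.30 was the highest of the role. The motors KIF14, KIF23 and KIF4A had log2 fold changes between -0.45 and -0.29 in both lines.

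The best known proliferation markers had values far apart in the 2 lines. TOP2A, the topoisomerase that untangles sister chromatids, measured 10.29 FPKM in JJ012 control, 9.67 in JJ012 with melatonin, 12.18 in 143B control and 4.76 in 143B with melatonin. MKI67, the Ki-67 protein that coats mitotic chromosomes, measured 1.73, 1.82, 6.40 and 2.81 in the same order. In 143B both fell, with CPM ratios of 0.391 (0.352 to 0.433) and 0.438 (0.398 to 0.483). In JJ012 the ratios were 0.940 (0.864 to 1.02) and 1.05 (0.915 to 1.21), and both intervals included 1 on 377 to 1260 counts per library. A ratio as low as in 143B lay outside these counting intervals in JJ012.

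**Figure D4:**
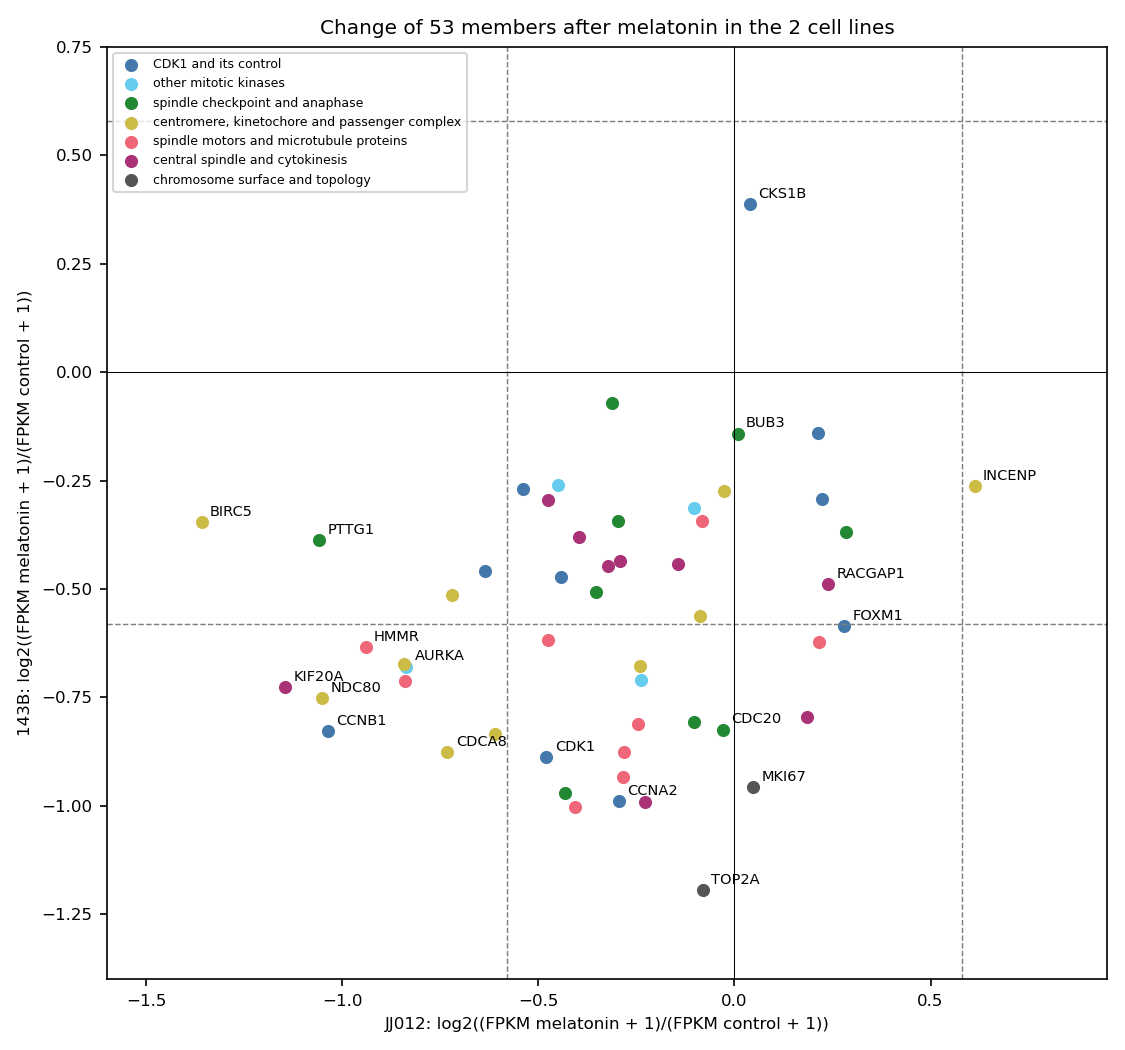
Log2 fold change of each of the 53 members in JJ012 (horizontal) and 143B (vertical), coloured by role, with dashed lines at the thresholds of -0.58 and 0.58. The 9 members in the lower left corner fell in both lines, and the 18 below the lower dashed line and right of the left one fell in 143B only.

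Across the lines, which share no library in this comparison, 9 members fell in both, namely CCNB1, NDC80, CDCA8, KIF20A, KIF2C, AURKA, SPC25, HMMR and AURKB. Of these, KIF20A and SPC25 passed the FPKM filter in both lines through the control library alone. A further 4 members fell in JJ012 only (BIRC5, PTTG1, NUF2 and CDC25C) and 18 in 143B only, and 21 passed the threshold in neither. A call in 1 line alone is not a tested difference between the lines. Of all genes tested, 18.6% fell in JJ012 and 6.65% in 143B. The shares of all genes that fell in both lines, or in 1 line only, were not computed. By counting interval, 33 members lay below 1 in both lines. Of all genes tested, 35.2% lay below 1 in JJ012 and 23.5% in 143B, and the share below 1 in both was not computed. Over the 53 members the log2 fold changes in the 2 lines were correlated with a Pearson coefficient of 0.20 and a Spearman coefficient of 0.19, where the 2 values of a gene share its length and base composition. The members low in JJ012 were thus weakly related to those low in 143B. The log2 fold change was lower in 143B for 36 of 53 members, and this share was not computed for all genes.

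A test of melatonin over both lines together, chosen after the data were seen, took the line as a block, which treated any difference in response between the lines as error and left 1 residual degree of freedom. With edgeR's quasi-likelihood test on the counts of 14464 genes, 48 of them members, 0 members passed a Benjamini-Hochberg adjusted p of 0.05, where 0.387% of all genes tested did so as lower. At an unadjusted p under 0.05, 16 members were lower and 0 higher, where 3.56% of all genes tested were lower. KIF20A had the smallest adjusted p of the members in edgeR, 0.206, at a log2 fold change of -1.69 and lower in both lines. With DESeq2 in the same design, 2 members were lower and 0 higher at the adjusted threshold, where 0.36% of all genes tested were lower, and 25 members were lower at an unadjusted p under 0.05, where 4.82% of all genes were. The 2 were CCNB1 and KIF20A, with DESeq2 adjusted p of 0.0106 and 0.0447, against edgeR adjusted p of 0.35 and 0.206. DESeq2 gave no adjusted p for 1683 of the 14464 genes, 0 of them members. TOP2A and MKI67, whose log2 fold changes were -0.08 and 0.05 in JJ012 and -1.19 and -0.96 in 143B, enter this fit with that difference as error.

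In JJ012 the change of a gene also varied with its exonic length. Among protein-coding genes the Spearman correlation of log2 fold change and length was 0.40 in JJ012 and -0.13 in 143B, so short genes were lower after melatonin in JJ012, and among the members it was 0.28 and 0.10. With the running median over length taken off, 6 of the 9 members lower in both lines stayed past the threshold in JJ012 and 9 in 143B. The 3 that did not were CDCA8, SPC25 and AURKB, at -0.50, -0.51 and -0.31. On the TPM scale AURKB, at -0.47, was the 1 of the 9 that did not pass in JJ012. INCENP stayed above the threshold under both, at 0.66 and 0.99.

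Without melatonin, the members were compared between the lines through the untreated control libraries, which also enter the comparisons above. The median gene of the 16929 tested was lower in 143B by a log2 difference of -0.29, and levels are read against it. The members' median difference, 143B over JJ012, was 0.11 over the 53 and 0.09 over the 51 tested. In 143B 6 members were higher and 8 lower, where 27.4% of all genes tested were higher and 41.3% lower. Centred on the median gene, 15 were higher and 5 lower, where 34.5% of all genes tested were higher and 32.6% lower. The difference lay below 0 in 19 of 53 members and 57.7% of all genes tested. By counting interval, 25 members were higher in 143B and 12 lower, where 35.1% of all genes tested were higher and 50.8% lower. UBE2C was at 56.47 FPKM in 143B control and 11.41 in JJ012 control, a log2 difference of 2.21, the largest of the 53. MKI67, BUB1B, ECT2, KIF15 and BUB1 were also higher in 143B, by 0.69 to 1.44 on the log2 scale. CKS1B stood at the opposite end, at 2.64 FPKM in 143B and 13.59 in JJ012, a log2 difference of -2.00. PTTG1, NUF2, CKS2, BIRC5, CCNB1, KIF20A and NEK2 were lower in 143B as well, with differences from -1.445 to -0.69. Of these 8 genes, 5 (PTTG1, NUF2, BIRC5, CCNB1 and KIF20A) were among the 13 that fell with melatonin in JJ012. Both comparisons use the JJ012 control library. Of all genes tested, 18.6% fell in JJ012. The share among all genes lower in 143B control was not computed, and no link is read from this overlap. CDK1, TOP2A and PLK1 had differences of 0.29, 0.22 and 0.09.

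To place the members among other cell cycle genes, 7 further lists were described in the same way. Their counts, too, stand beside 18.6% of all genes tested lower and 19.6% higher in JJ012, and 6.65% and 6.09% in 143B. Of 22 other late cell cycle genes tested, 5 fell and 1 rose in JJ012, while in 143B 9 fell, with medians of -0.32 and -0.51. PSRC1, a spindle protein, had the lowest value in JJ012 (16.28 and 4.86 FPKM) and PBK, a mitotic kinase, in 143B (3.22 and 1.06), while CKAP5, a microtubule polymerase, rose in JJ012 (9.97 and 21.00) and CKAP2 was the highest in 143B, at 0.33. Condensin and cohesin-protection genes had medians of -0.22 over 10 tested in JJ012 and -0.52 over 11 in 143B, where 3 fell, led by CDCA5, sororin, from 3.32 to 0.97 FPKM. In JJ012 NCAPH2 was the 1 that fell, from 9.23 to 5.22 FPKM, and the highest values were those of SMC4 in JJ012, at 0.28, and NCAPD2 in 143B, at 0.17. Other kinetochore genes had medians of -0.08 over 18 in JJ012 (0.15 on the TPM scale, where the median of all genes tested was 0.21; 5 fell) and -0.27 over 19 in 143B (3 fell), with DSN1 lowest in JJ012 at -0.95 and SKA3 lowest in 143B at -0.87. CENPN and MIS12 were the highest, at 0.37 and 0.33.

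The anaphase-promoting complex is the ubiquitin ligase that ends mitosis and is present throughout the cycle. Of the 15 genes in its list, which held FZR1 beside the subunits, 3 fell and 1 rose in JJ012. In 143B 0 of 14 tested changed, and the median was 0.13. ANAPC11, the RING subunit of the complex, had the lowest value in JJ012 (10.76 and 5.26 FPKM) and ANAPC1, its scaffold, the highest (2.22 and 4.26). In 143B the ends were ANAPC13 at -0.41 and ANAPC2 at 0.38. Of the brakes on mitotic entry and exit, 4 were tested in each line. In JJ012 1 rose and 0 fell, with a median of 0.42, and in 143B 0 changed, with a median of -0.22. The 1 that rose was WEE1, the kinase that puts the inhibitory phosphate on CDK1. It went from 8.49 to 13.61 FPKM in JJ012 and measured 4.45 and 2.76 in 143B, a log2 fold change of -0.54. CDC14B was the lowest of the 4 brakes tested in JJ012, at 0.06, and CDC14A the highest in 143B, at 0.47. Of the MuvB, DREAM and B-MYB genes, 13 were tested in each line. In JJ012 2 rose and 1 fell, with a median of 0.22, and in 143B 0 rose and 1 fell, with a median of -0.13. MYBL2, which encodes B-MYB, fell in both lines, from 2.06 to 0.76 FPKM in the JJ012 pair and from 8.37 to 3.57 in the 143B pair. E2F7, a repressor of E2F target genes, rose in JJ012 from 6.39 to 20.84 FPKM and measured 12.77 and 8.67 in 143B, where TFDP2 was the highest of that list, at 0.42.

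Replication and G1/S genes peak before mitosis. Of 23 tested in 143B, 1 fell and 3 rose, with a median of -0.15, and of 22 tested in JJ012, 3 fell and 0 rose, with a median of -0.07 that was 0.16 on the TPM scale. RRM2, a subunit of ribonucleotide reductase, fell in 143B from 4.70 to 1.41 FPKM, and PCNA, the replication clamp, rose from 7.09 to 11.50. In JJ012 ORC1, of the origin recognition complex, was lowest at -0.71 and CCNE1, cyclin E1, highest at 0.45. The genes that the authors' annotation put in the KEGG pathway Cell cycle, without the 15 members in it, had medians of 0.09 over 114 tested in JJ012, with 13 lower and 22 higher, and -0.01 over 108 in 143B, with 2 lower and 6 higher. Named by the same rule, CDKN2C had the lowest value there in JJ012 (11.21 and 2.69 FPKM) and SFN in 143B (5.53 and 1.34), and GADD45A, which slows mitotic entry after stress, had the highest in 143B (27.10 and 58.71). In JJ012 the highest value belonged to a gene without a symbol in the table.

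**Figure D5:**
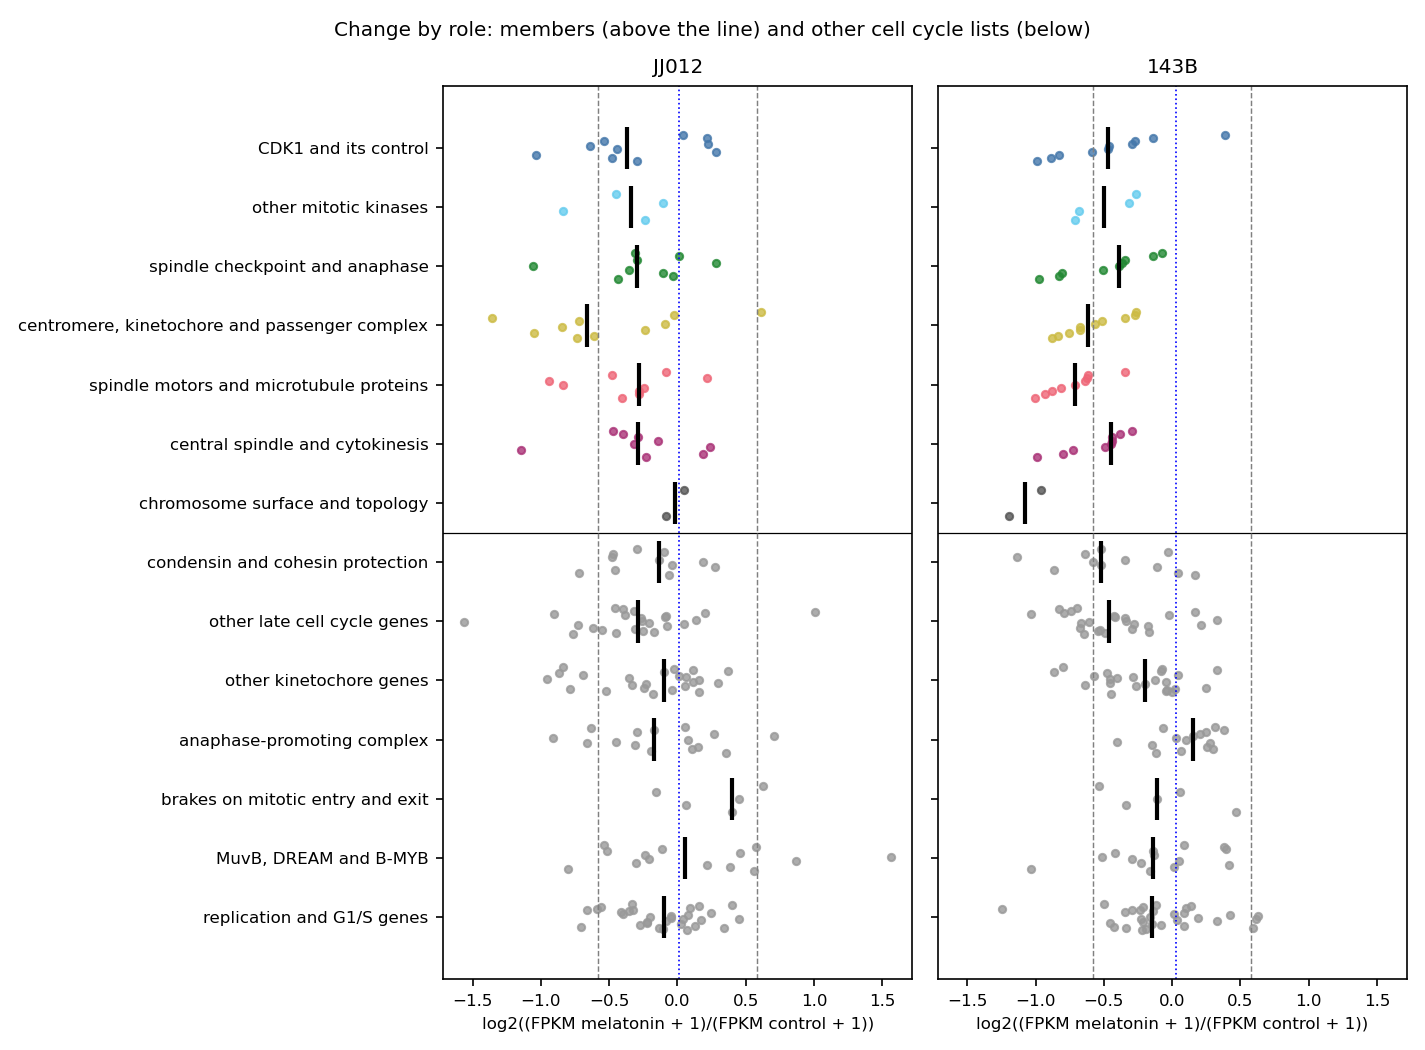
Log2 fold change of single genes (points) in JJ012 (left) and 143B (right) for the 7 roles of the members, above the horizontal line, and 7 other cell cycle lists below it; black bars are medians over all listed genes, the blue dotted line is the median of all genes tested, and dashed lines mark -0.58 and 0.58. In 143B every role has its median left of the dotted line, and the anaphase-promoting complex has it on the right.

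Some members share their position with other genes, and reads from the shared bases can be left out or given to the other gene. Of the 53, 7 overlapped a gene on the same strand by at least 1000 bases (BUB1B, CCNB2, CENPA, KIF15, NEK2, NUSAP1 and PRC1), and 11 overlapped one on the other strand, where reads are shared if the counting did not use strand. The low level of NUSAP1, at most 0.37 FPKM, goes with an unnamed gene annotated over 60.2 kb of it, in which 0 counts were placed in all 4 libraries. PRC1 shares 29.4 kb with an unnamed gene that held 18 to 73 counts. Whether reads of these genes were left uncounted was not tested. Without the 7 members, 13 fell and 1 rose in JJ012 and 24 fell and 0 rose in 143B. Of all genes tested, 18.6% fell and 19.6% rose in JJ012, and 6.63% and 6.09% in 143B.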

How the data were processed

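Poly(A) RNA of the 4 libraries was sequenced in paired-end mode on a NovaSeq instrument, per the labels. The submitters' processing notes name cutadapt 1.9.1, HISAT2 2.2.1, HTSeq 0.6.1, DESeq2 and the human genome build hg38. The annotation release and the strand setting are not given in the sources used here. The authors deposited raw whole-number counts per gene and library, and FPKM made from those counts, the exonic length and the library total. Their table also held gene positions and pathway terms. Columns were assigned to samples through the cell line in their names, a suffix T being taken to mean treatment with melatonin.

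With 1 library per condition no test within a line could be made, and the study's FDR limit was not applied there. Melatonin was tested over both lines with line as a block (1 residual degree of freedom), by edgeR's quasi-likelihood test and DESeq2, over genes with a mean of at least 1 FPKM. Log2 fold changes used a pseudocount of 1 FPKM, genes that reached 1 FPKM in either library, and the study's threshold of 0.58. Ratios of CPM (count over library total) have exact Clopper-Pearson 95% intervals, and sums have exact Poisson intervals. Intervals and floors of 3 counts cover counting error only. Gene types came from GENCODE 29. Calculations used Python 3.11.15, scipy 1.17.1 and pandas 2.3.3, edgeR 4.0.16 and DESeq2 1.42.0, and were tested on simulated data.

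The members, the role groups and the other lists were chosen with earlier results of these data known. Per role, the members with the largest and the smallest log2 fold change in each line are given in every library, with CDK1, CCNB1, FOXM1, MKI67, TOP2A and all members called in both lines. Other members are described by value or range, and of each other list the highest and lowest gene per line is named. Alternatives were centring on the median gene, TPM, CPM, TMM, a pseudocount of 0.1, no filter, a filter of 5 FPKM, a threshold of 1, removal of a running median over length (501 genes), and calls that also need the counting interval to leave out 1. Chosen after seeing the data were a filter on the mean of the 4 libraries, leaving out members that overlap another gene, the test over both lines, and protein-coding genes as the background. Promoter sequences are RefSeq's, on GRCh38.p14, and 8 members without an entry were UBE2C, BIRC5, TTK, AURKA, BUB3, RACGAP1, FOXM1 and TPX2.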

Additional observations from a re-analysis of the deposited data

Results flagged for a closer look

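Of the 53 members, 6 had counting intervals of the CPM ratio above 1 in JJ012 and below 1 in 143B. Of all genes tested, 36.9% lay above 1 in JJ012 and 23.5% below 1 in 143B. The share of all genes with both was not computed, so the 6 are not read as particular to the members. The intervals cover counting error only. With 1 library per condition the difference between the lines was not tested. The log2 fold change in JJ012 and in 143B was 0.61 and -0.26 for INCENP, the scaffold of the passenger complex. It was 0.28 and -0.585 for FOXM1, the transcription factor of G2 and M phase genes, and 0.28 and -0.37 for BUB1, the checkpoint kinase. For RACGAP1, of the central spindle, the values were 0.24 and -0.49, and for CDC25B, the phosphatase that activates CDK1, 0.22 and -0.29. KIF15, the spindle motor, had 0.21 and -0.62, on 31 and 44 counts in JJ012, and overlaps TMEM42, which had 0 and 2 counts in JJ012 and 123 and 203 in 143B. No member had an interval below 1 in JJ012 and above 1 in 143B.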

How the results depend on the processing

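Over both lines, with line as a replicate block pairing melatonin with control, 0 members were lower by edgeR and 2 by DESeq2. No member call and no median over all members reversed sign under any alternative run within the lines or between controls. Medians of single roles did. In JJ012, spindle checkpoint and anaphase went from -0.21 to 0.001 on TPM, and chromosome surface and topology from -0.02 to 0.24. Between controls, CDK1 and its control went from -0.19 to 0.19 with the length trend removed, and the centromere role from -0.18 to 0.24. Members without a call also reversed, such as TOP2A in JJ012, at -0.08 and 0.18 on TPM. The JJ012 medians of other kinetochore genes (-0.08), replication genes (-0.07) and the anaphase-promoting complex (-0.17) were 0.15, 0.16 and 0.08 on TPM. With a filter of 5 FPKM, members lower numbered 5 (of 19 tested) in JJ012, 13 (of 22) in 143B and 5 between controls, members higher 0 in JJ012, and the 143B median was -0.77. Of all genes tested under that filter, 17.7%, 3.76% and 40.5% were lower in that order, and 22.1% were higher in JJ012. At a threshold of 1, members lower numbered 5 in JJ012, 2 in 143B and 5 between controls, and 0 were higher in JJ012. Of all genes tested, 6.88%, 2.74% and 28.7% were lower in that order at this threshold, and 7.86% were higher in JJ012. On TPM, 4 were higher in JJ012 and 25 between controls, where 33% and 36.5% of all genes tested were higher. The member medians on TPM were -0.14 in JJ012 (0.21 for all genes tested), -0.87 in 143B and 0.49 between controls. The 143B median was -0.80 on CPM and -0.87 with a pseudocount of 0.1. Between controls, members higher and lower were 15 and 5 (median 0.37) when centred, 17 and 5 (0.37) with TMM, and 21 and 3 (0.37) with the length trend removed, where 34.5%, 35.5% and 32.7% of all genes were higher and 32.6%, 32.4% and 29.8% lower, so that the split of the controls depends on the scaling. Among the remaining alternatives, members lower ranged from 10 to 19 in JJ012 and from 24 to 38 in 143B. Of all genes, 5.76% to 24.1% were lower in JJ012 under these alternatives and 2.06% to 15.5% in 143B. Without replicates, no value here has an error that covers variation between cultures, and for the 8 members under 50 counts in at least 1 library (NUSAP1, KIF15, SPC25, CDC25C, KIF20A, CENPA, ESPL1 and NEK2) the counting intervals are wide, such as 0.065 to 0.601 for NUSAP1 in 143B.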
